A study of Homo sapiens with 6 samples.

Results

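The genes described here were the expressed members of the ZNF family in U2OS cells, a human osteosarcoma cell line, after knockdown of the histone demethylase LSD1. Members were chosen by symbol and by level, as all genes whose symbol was ZNF followed by a number and at most 1 letter and whose read count averaged at least 200 over 6 RNA-seq libraries. Of 15585 genes in the count table, 451 had such a symbol and 173 of these reached the minimum. The mean was taken over both groups, so that a change between them could carry a gene over the minimum. ZNF831 (mean of 144 siCTR and 325 siLSD1 reads) and ZNF860 (174 and 237) reached it only through the siLSD1 libraries, ZNF579 and ZNF580 only through the siCTR libraries (212 and 209 reads, against 199.7 and 197 in siLSD1), and the other 169 reached it in both groups. The libraries came from total RNA of U2OS cells after 48 h of siRNA transfection, 3 with a control siRNA (siCTR) and 3 with an LSD1 siRNA (siLSD1). No source used here gives for these libraries which LSD1 siRNA was transfected, so the loss of LSD1 and other effects of that siRNA cannot be told apart. Nothing in the labels says that replicates were separate cultures, so the p-values measure the spread between these libraries.

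Each library held between 12513511 and 13561344 counted reads. Counts are given below in the order of replicates 1 to 3. KDM1A, the gene of LSD1, had 6140, 6493 and 6573 siCTR reads against 1110, 1198 and 1246 siLSD1 reads, and it fell by 2.44 on the log2 scale (SE 0.11, adjusted p = 2.27e-07, edgeR quasi-likelihood test, Benjamini-Hochberg adjusted). Of the markers of the mesenchymal and osteoblast lineage, VIM (9487 to 11615 reads), ALPL (4162 to 5411 reads) and CDH2 (585 to 781 reads) were abundant, COL1A1 had 122 to 200 reads, and SPARC and RUNX2 had at most 4 reads in a library. The blood markers PTPRC and HBB and the endothelial marker PECAM1 had at most 3 reads in a library. VWF, another endothelial marker, had 63 to 103 siCTR reads against 152 to 161 siLSD1 reads (log2 fold change 0.87, adjusted p = 0.0418, edgeR quasi-likelihood test, Benjamini-Hochberg adjusted). The epithelial markers EPCAM and KRT5 had 28 to 41 reads and at most 1 read, and CDH1 had 66 to 95 siCTR reads against 117 to 154 siLSD1 reads (log2 fold change 0.77, adjusted p = 0.0699, same test). With each library's trend on GC content and length corrected for, VWF and CDH1 both had an adjusted p under 0.05 (0.84 and 0.70 on the log2 scale, adjusted p = 0.00625 and 0.0262, same test). The part of these markers in the ZNF values was not tested.

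Proteins of the C2H2 class read DNA through tandem zinc fingers, each of which contacts a few bases, so that a long array can recognise a long and specific sequence. The largest branch of this family joins the fingers to a KRAB domain, which recruits the corepressor TRIM28 (KAP1), and through it the H3K9 methyltransferase SETDB1 and HP1 proteins, to silence transposable elements and some genes. KRAB zinc finger genes arose by repeated local duplication and lie in clusters, many of them on chromosome 19. LSD1 removes methyl groups from H3K4 in complexes with CoREST and HDAC1 or HDAC2, and a few ZNF proteins, among them ZNF217, are known as partners of these complexes.

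Of the 173 expressed ZNF genes, 2 rose in siLSD1 cells at an adjusted p under 0.05, ZNF831 and ZNF45, and none fell (edgeR quasi-likelihood test, Benjamini-Hochberg adjusted over 11844 genes). These were 1.16% and 0% of the members, beside 1.07% higher and 0.371% lower among all genes tested and 0.865% and 0.42% among the 8325 genes that reached the same minimum of 200 reads. Since ZNF831 owed its place to its siLSD1 reads, the count of 2 is a description. Of the 169 members at the minimum in both groups, 1 (0.592%) was called higher and 0 lower. At an unadjusted p under 0.05, 13 members (7.51%) were higher and 3 (1.73%) were lower. The same threshold took 7.48% of all genes tested and 6.8% of those with a mean count of at least 200 on the higher side, and 6.55% and 6.67% on the lower side. ZNF831 and ZNF860, which reached the minimum only through the siLSD1 libraries, are among the 13, so this count is a description as well. With them, the share of members on the higher side was near the background and the share on the lower side was below it. With the replicate number as a block, 6 members (3.47%) were called higher and 2 (1.16%) lower, beside 4.13% and 3.44% of all genes tested.

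The fold changes of the members were small and lay slightly above those of other genes. Their median log2 fold change was 0.04, with quartiles at -0.06 and 0.15, beside a median of -0.02 with quartiles at -0.15 and 0.11 among all genes that reached the minimum. Of the 173 members, 108 (62.4%) had a log2 fold change above 0, beside 47.3% of all genes tested and 45.6% of genes that reached the minimum. The estimates ran from -0.40 (ZNF703) to 1.17 (ZNF831), 144 members lay within 0.25 of 0 and only ZNF831 and ZNF45 lay beyond 0.5. The median 95% confidence interval reached 0.297 on the log2 scale to each side, and for 121 members the whole interval lay within 0.5 of 0. In CPM (counts scaled to the total of the library, with TMM scaling), the 3 siLSD1 libraries all lay above the 3 siCTR libraries for 17 members (9.83%) and all below for 11 (6.36%). Among all genes tested these shares were 11.4% and 9.97%, and among genes that reached the minimum they were 10.8% and 10.3%.

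**Figure D1:**
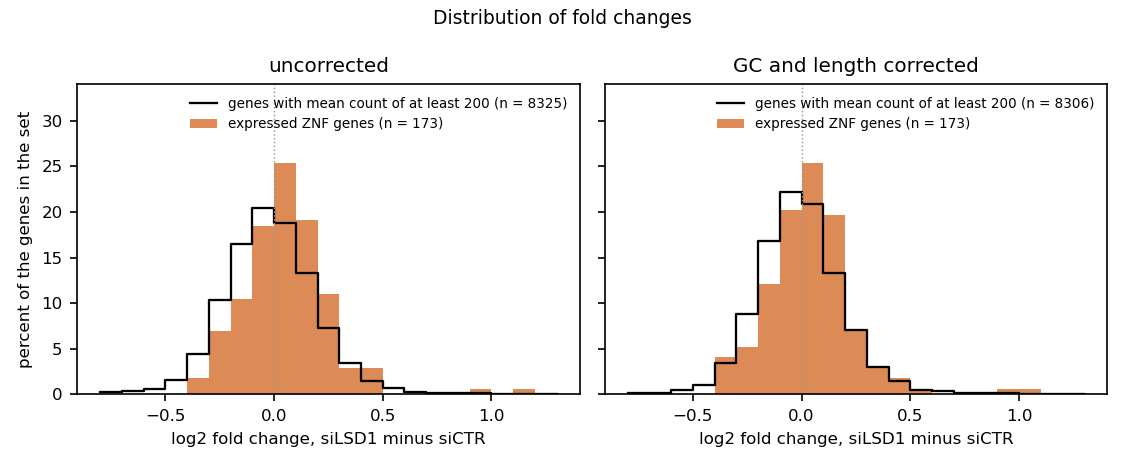
Distribution of the log2 fold change (siLSD1 minus siCTR, bins of 0.1) for the 173 expressed ZNF genes (orange bars) and for genes that reached the minimum (black line), in percent of each set, without (left) and with (right) the correction for GC content and length. In the uncorrected fit the ZNF genes centre at 0.04 and the larger set, which includes them, at -0.02, ZNF831 and ZNF45 stand alone on the right, and 11 genes of the larger set (12 with the correction) lie outside the axis.

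The size of the small shift of the family changed with the library left out, while the median stayed above 0 in all 6 fits. Signs and medians of all genes in these fits were not set beside it. In the 6 fits without 1 library, 65 members were higher each time, 32 were lower each time and 76 took either sign. The number higher went from 108 to 94 without siCTR replicate 2 and to 97 without siLSD1 replicate 3, and the median fell to 0.0204 without siCTR replicate 2 and reached 0.0730 without siCTR replicate 3. The 8 members higher at an unadjusted p under 0.05 without siLSD1 replicate 2 compare with 13 in the full set, and 5.07% of all genes passed on that side without this library. The number lower at that threshold, 3 in the full set, was 0 without siCTR replicate 3, 1 without siLSD1 replicate 2 and 6 without siLSD1 replicate 1, beside 6.05%, 3.79% and 7.43% of all genes in the same fits. ZNF831 and ZNF45 were called in all 6 of these fits.

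ZNF831 is a C2H2 gene on chromosome 20 (GRCh38, GENCODE 44, 59123381 to 59259113, plus strand), whose canonical product held 2 C2H2 fingers and no KRAB motif. It had 175, 116 and 141 siCTR reads against 355, 301 and 320 siLSD1 reads. Every siLSD1 library was above every siCTR library, and the mean went from 11.0 ± 2.27 CPM to 24.8 ± 1.47 CPM (SD, n = 3 each). The log2 fold change was 1.17 (SE 0.16, 95% confidence interval 0.82 to 1.52, adjusted p = 0.00462, edgeR quasi-likelihood test, Benjamini-Hochberg adjusted), a 2.25-fold rise. It was a weakly expressed member even so, at a mean of 1.63 FPKM (fragments scaled to gene length and library total), in a range of 1.32 to 55.9 FPKM over the 173 members. Of the 6 tested genes within 250 kb of it none was called and none had an unadjusted p under 0.05, with log2 fold changes from -0.18 (ATP5F1E) to 0.07 (PRELID3B).

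ZNF45 is a KRAB zinc finger gene on chromosome 19 (GRCh38, 43912624 to 43935282, minus strand) with 15 fingers. It had 384, 353 and 442 siCTR reads against 692, 703 and 946 siLSD1 reads, again without overlap. The mean went from 30.0 ± 2.71 to 59.4 ± 9.63 CPM (SD, n = 3 each), with a log2 fold change of 0.99 (SE 0.14, 95% confidence interval 0.68 to 1.29, adjusted p = 0.00573, edgeR quasi-likelihood test, Benjamini-Hochberg adjusted). This was a 1.98-fold rise of a gene at 11.2 FPKM, above the median of 5.95 FPKM of the members. Over the fits without 1 library the log2 fold change lay between 0.85 and 1.08 for ZNF45 and between 1.05 and 1.34 for ZNF831. RNA-seq of bulk cells does not separate more RNA per cell from more cells that express a gene.

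**Figure D2:**
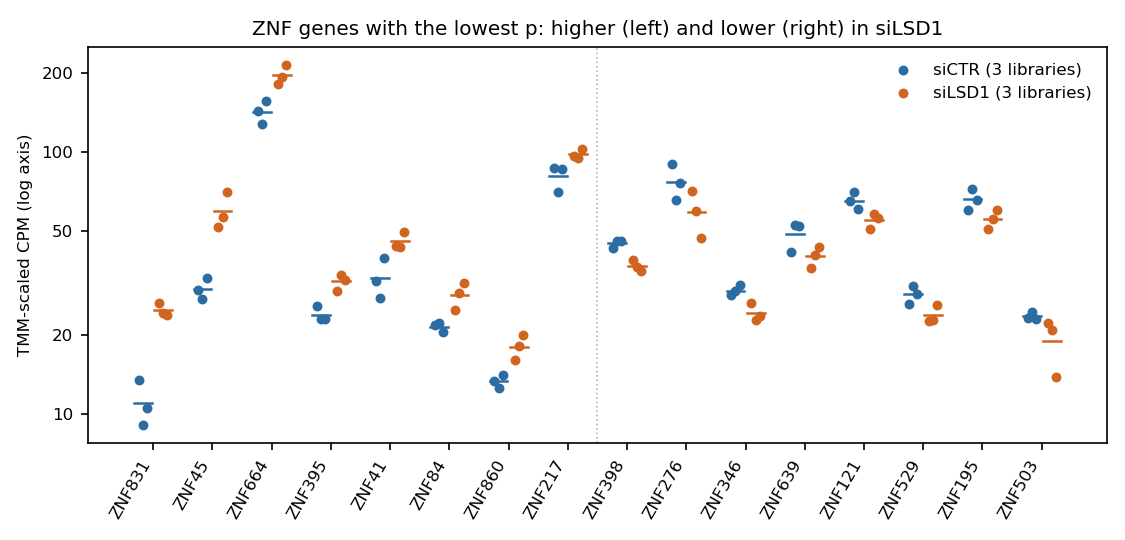
TMM-scaled CPM (log axis) in each of the 3 siCTR (blue) and 3 siLSD1 (orange) libraries for the 8 expressed ZNF genes with the lowest p among those higher (left of the dotted line) and the 8 among those lower (right), with the group mean as a bar. The groups are far apart for ZNF831 (11.0 and 24.8 CPM on average) and ZNF45 (30.0 and 59.4 CPM), and closer for the others.

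ZNF45 lies in a dense array of related KRAB genes, and its neighbours were read beside it. Within 250 kb, 15 genes were tested, 11 of them ZNF genes, and none was called. Their median log2 fold change was 0.09. The 4 expressed members among them were ZNF283 (log2 fold change 0.17, SE 0.13), ZNF224 (0.02, SE 0.13), ZNF234 (0.09, SE 0.13) and ZNF226 (-0.02, SE 0.14), all KRAB genes with 15 to 18 fingers and with 245 to 386 reads on average. The gene nearest to ZNF45, ZNF404, had a log2 fold change of 0.98 (SE 0.43, unadjusted p = 0.038, adjusted p = 0.316, edgeR quasi-likelihood test, Benjamini-Hochberg adjusted) at a mean of 10 reads. It was the only neighbour with an unadjusted p under 0.05. Members of such a cluster are close in sequence, and reads that fit several of them could be counted for any or for none, since the counting rule is not given in the sources used here.

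**Figure D3:**
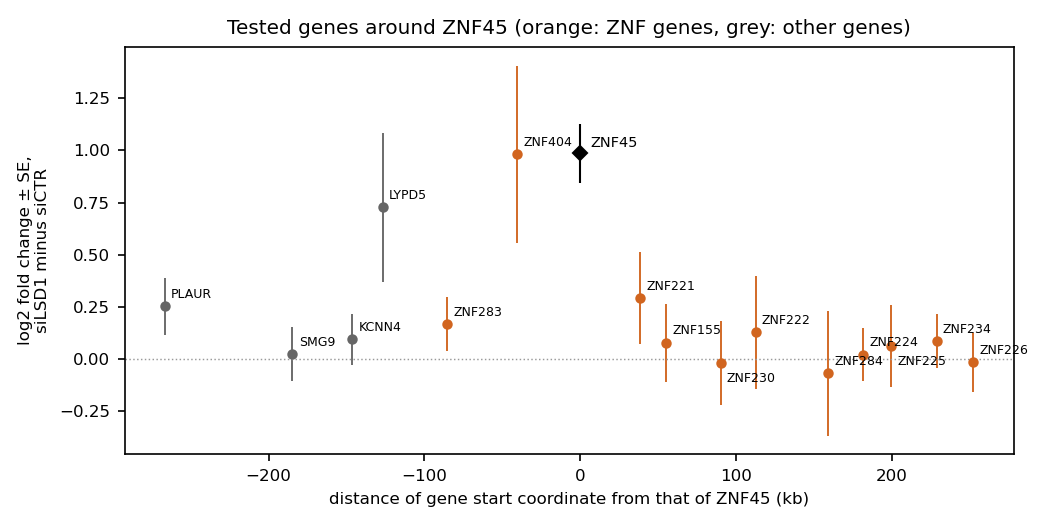
Log2 fold change (siLSD1 minus siCTR, ± SE of the edgeR fit) of the 15 tested genes within 250 kb of ZNF45, against the distance of their start coordinate from that of ZNF45 in kb, with ZNF genes in orange, other genes in grey and ZNF45 as a black diamond. ZNF45 stands at 0.99 and the 4 expressed ZNF genes between -0.02 and 0.17, while ZNF404 and LYPD5, with 10 and 17.3 reads on average, have wide errors.

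The promoter of ZNF45 is shown because this gene was the called member with a window in the RefSeq promoter set (250 bases before to 50 after the start, GRCh38.p14). The window is chr19:43935233-43935532 on the minus strand and holds 22 CpG. The capitals mark a match, on the other strand, to the word ACTACANNTCC, the core of a site bound by ZNF143, a transcription activator of many promoters and itself a member of this family.
ZNF45 promoter: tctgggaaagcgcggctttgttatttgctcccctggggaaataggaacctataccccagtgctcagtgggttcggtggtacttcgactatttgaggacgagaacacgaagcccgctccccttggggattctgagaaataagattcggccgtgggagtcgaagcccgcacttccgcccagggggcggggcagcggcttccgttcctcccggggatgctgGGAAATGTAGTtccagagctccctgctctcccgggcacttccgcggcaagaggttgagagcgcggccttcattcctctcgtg

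The same word was found in the windows of 17 of the 153 members with a window, 12 of which hold a KRAB motif. The matches that belong to genes named in this text are given with 8 bases on each side, read on the strand of the word. They belong to ZNF45, 3 of its neighbours and 2 members elsewhere. Their capitals are alike by the search, apart from the bases written N in the word.
ZNF45 (chr19:43935296-43935322, plus strand): gctctggaACTACATTTCCcagcatcc
ZNF234 (chr19:44141525-44141551, minus strand): ttggcgggACTACATTTCCcagaattc
ZNF224 (chr19:44094257-44094283, minus strand): gcgtctggACTACACTTCCcagaattc
ZNF283 (chr19:43827251-43827277, plus strand): cgctgtggACTACATTTCCcagaagtc
ZNF146 (chr19:36214966-36214992, minus strand): ggccttggACTACATTTCCcttgaggc
ZNF451 (chr6:57089987-57090013, plus strand): ggacccgaACTACAATTCCcagcatcc

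The capitals mark the word. Of the 206 promoter windows of the members, 17 (8.25%) held the word on either strand, beside 3.48% of 10004 windows of genes that reached the minimum and 1.89% of all 35116 windows. The match in ZNF45 ends 21 bases before the start, and the 21 matches in the 17 genes lay between 188 bases before and 10 bases after it. The members with the word did not stand out by their fold changes. Their median log2 fold change was 0.02, with 11 of 17 higher and ZNF45 the only one called, beside 0.03 with 82 of 136 higher among members with a window and without the word.

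In the same windows 8 further words, chosen from general knowledge of promoter elements, were searched on both strands and given no test. The word CGGAAG, the core read by ETS factors, was in 48.5% of member windows, beside 32.3% in genes that reached the minimum and 19.5% in all. The word GGGCGG, the GC box of SP and KLF factors, was in 63.1%, 68.4% and 45.0%. The word CCCAGNATGC, which overlaps the ZNF143 word in the longer form of its site, was in 2.43% of member windows and 1.1% of those of genes that reached the minimum. For TGACGTCA, the element of CREB and ATF factors, these shares were 4.37% and 3.02%. They were 7.28% and 9.96% for CACGTG, the E-box of MYC and USF factors. For GCATGCG, part of the site of NRF1, they were 7.28% and 6.25%, and for CTCGCGAG 0.485% and 2.07%. The word TTCAGCACC, part of the element of REST, was in none of the member windows and in 0.200% of those of genes that reached the minimum.

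After ZNF831 and ZNF45, the lowest p belonged to ZNF664, an abundant C2H2 gene with 9 fingers and no KRAB motif. It had 1863, 1642 and 2097 siCTR reads against 2432, 2396 and 2894 siLSD1 reads, with no overlap between the groups. The means were 142 ± 14.1 and 196 ± 17 CPM (SD, n = 3 each), and the log2 fold change of 0.46 (SE 0.12) had an adjusted p of 0.0795 (edgeR quasi-likelihood test, Benjamini-Hochberg adjusted). In GENCODE its exons overlap those of RFLNA on the same strand. DESeq2 called it at an adjusted p of 0.0219.

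The next 4 on the higher side were ZNF395, which binds the promoter of the huntingtin gene, and the KRAB genes ZNF41, ZNF84 and ZNF860. ZNF41, on the X chromosome, had 418, 354 and 528 siCTR reads against 588, 537 and 667 siLSD1 reads, with a log2 fold change of 0.46 (SE 0.14, adjusted p = 0.161, edgeR quasi-likelihood test, Benjamini-Hochberg adjusted). ZNF395 had 333, 294 and 310 against 396, 422 and 438 reads (0.42, SE 0.13, adjusted p = 0.141). ZNF84 had 282, 284 and 276 against 333, 361 and 426 reads (0.41, SE 0.13, adjusted p = 0.184). The siLSD1 libraries lay above all siCTR libraries for each of these genes. ZNF860 did so too, with 173, 161 and 189 against 215, 225 and 270 reads (0.44, SE 0.15, adjusted p = 0.186), and with a mean of 206 reads it was among those just inside the minimum.

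ZNF217, an oncogene amplified in breast cancer whose protein is a partner of LSD1, CoREST and CtBP, was the eighth. It had 1123, 900 and 1156 siCTR reads against 1298, 1183 and 1388 siLSD1 reads. The groups did not overlap, at 80.8 ± 9.33 and 98.2 ± 4.18 CPM (SD, n = 3 each). The log2 fold change of 0.28 (SE 0.12, 95% confidence interval 0.02 to 0.54) did not pass the adjusted threshold (adjusted p = 0.305, edgeR quasi-likelihood test, Benjamini-Hochberg adjusted). With the correction for GC content and length and the replicate number as a block, ZNF217 did pass (0.23, adjusted p = 0.0394, same test). The remaining members higher at an unadjusted p under 0.05 were ZNF592, ZNF566, ZNF182, ZNF675 and ZNF629, with log2 fold changes of 0.28 to 0.35.

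On the lower side, 3 members had an unadjusted p under 0.05 and no adjusted p under 0.05. ZNF276, a gene whose exons overlap the Fanconi anaemia gene FANCA on the opposite strand, had 1162, 837 and 1021 siCTR reads against 952, 740 and 629 siLSD1 reads, and its groups overlapped (log2 fold change -0.38, SE 0.16, adjusted p = 0.305, edgeR quasi-likelihood test, Benjamini-Hochberg adjusted). Without siLSD1 replicate 3 the estimate of ZNF276 was -0.24, and without siLSD1 replicate 1 it was -0.54. ZNF398, a KRAB gene whose protein is known to bind the estrogen receptor, had 558, 586 and 615 against 520, 452 and 472 reads (-0.29, SE 0.12, adjusted p = 0.276). ZNF346, which codes for a protein that binds double-stranded RNA, had 367, 376 and 416 against 354, 283 and 318 reads (-0.28, SE 0.13, adjusted p = 0.327). In CPM, all siLSD1 libraries lay below all siCTR libraries for ZNF398 and ZNF346.

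The other 5 of the 8 lower members with the lowest p were ZNF639, ZNF121, the KRAB genes ZNF529 and ZNF195, and ZNF503, a corepressor of development without a finger that the search found. Their log2 fold changes ran from -0.25 (ZNF121, SE 0.12) to -0.32 (ZNF503, SE 0.17), with adjusted p between 0.368 and 0.429 (edgeR quasi-likelihood test, Benjamini-Hochberg adjusted). ZNF503 had 302, 315 and 308 siCTR reads against 297, 260 and 186 siLSD1 reads, so that replicate 3 of siLSD1 held much of its difference. ZNF503 and ZNF529 overlap antisense transcripts in GENCODE. Without a stated strand setting, reads of such partners cannot be told apart, and 67 of the 173 members had an exon that overlaps another gene.

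The libraries differed from each other in their GC trend. In the bin of the GC-richest tested genes (59.9% to 76.0% GC), the median deviation of log2 CPM from the mean of the 6 libraries was 0.16 in siCTR replicate 1, 0.18 in siLSD1 replicate 1 and -0.34 in siLSD1 replicate 3. In the bin of the AT-richest genes (30.7% to 39.9% GC), it was -0.08, -0.16 and 0.14 in the same libraries. The trends were thus opposite in replicates of the same group. The expressed ZNF genes had a median GC content of 43.1%, beside 48.3% over all tested genes, and ranged from 33.2% to 70.9%.

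Over all members, the median deviation was -0.01, -0.09 and 0.03 in siCTR replicates 1 to 3 and -0.01, 0.03 and 0.09 in siLSD1 replicates 1 to 3. The lowest value was in siCTR replicate 2 and the highest in siLSD1 replicate 3, and the groups overlapped. In siCTR replicate 2 the ZNF genes were low in each of the 6 GC bins (-0.06 to -0.20), while all genes of the same bins ran from -0.02 to 0.05 in that library. The members in the lowest tertile of GC content centred at a log2 fold change of 0.10, with 41 of 57 higher. The middle and the highest tertile had 0.02 each, with 33 of 59 and 34 of 57 higher.

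**Figure D4:**
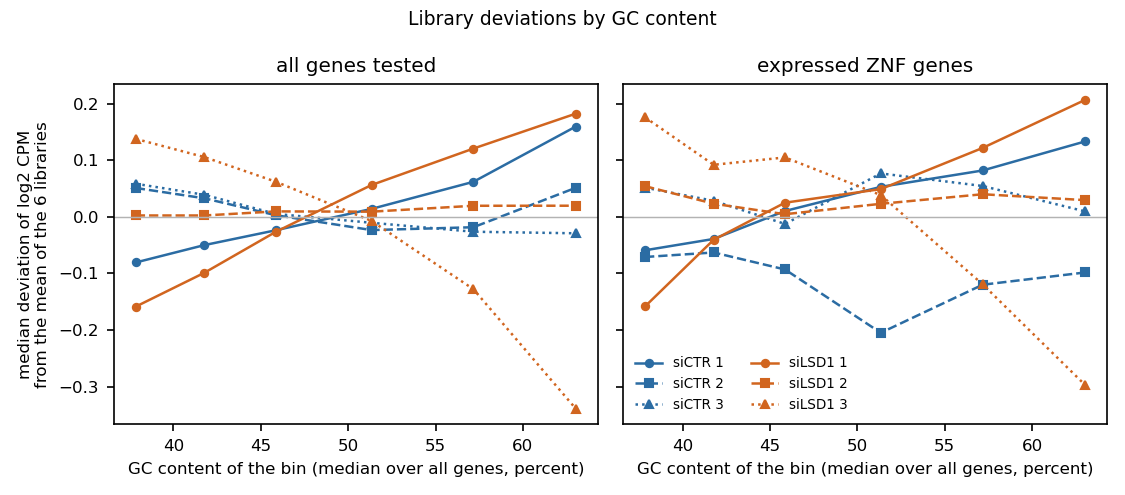
Median deviation of log2 CPM from the mean of the 6 libraries in 6 bins of GC content (percent), for all genes tested (left) and the expressed ZNF genes (right), with siCTR libraries in blue, siLSD1 libraries in orange and replicates by line style. Library siLSD1 3 slopes downwards from 0.14 to -0.34 over all genes, siLSD1 1 and siCTR 1 slope upwards, and siCTR 2 lies below 0 in every bin of ZNF genes.

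With each library's trend on GC content and length removed, the members' median log2 fold change was 0.02. Their median deviation was then -0.0046, -0.022 and -0.013 in siCTR replicates 1 to 3 and 0.024, 0.013 and 0.0083 in siLSD1 replicates 1 to 3. The groups no longer overlapped. The corrected medians of genes that reached the minimum did not overlap either, in the other direction. They were 0.0021, 0.023 and 0.0013 in siCTR replicates 1 to 3 and -0.013, -0.0027 and -0.0020 in siLSD1 replicates 1 to 3. For the members, the value of siLSD1 replicate 1 changed sign and was farther from 0 than without the correction. The corrected fit called 9 members higher (5.2%) and 3 lower (1.73%). ZNF831 and ZNF860, which reached the minimum only through the siLSD1 libraries, are among the 9, so this count too is a description. Among all genes tested the corrected fit called 5.09% higher and 3.52% lower, and among genes that reached the minimum it called 5.49% and 4.21%. The members higher were 101 (58.4%), beside 49.4% of all genes tested and 46.9% of genes that reached the minimum. The share of members called higher, with ZNF831 and ZNF860 included, was thus near the background and the share called lower below it. The share with a positive sign lay above it, as without the correction. At an unadjusted p under 0.05 the corrected fit had 19 members higher (11%) and 17 lower (9.83%), beside 12.7% and 12.1% of all genes tested.

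The 9 higher in the corrected fit were ZNF831 (log2 fold change 1.07), ZNF45 (0.93), ZNF865 (0.55), ZNF860 (0.43), ZNF41 (0.43), ZNF664 (0.42), ZNF675 (0.40), ZNF395 (0.37) and ZNF84 (0.36). The 3 lower were ZNF276 (-0.40), ZNF398 (-0.37) and ZNF346 (-0.34). All 12 had the same direction without the correction. ZNF865, with 70.9% GC the most GC-rich member, had 255, 208 and 196 siCTR reads against 393, 290 and 154 siLSD1 reads, so that the siLSD1 libraries spanned the siCTR ones (uncorrected log2 fold change 0.34, SE 0.26, corrected SE 0.12). With the correction and 1 library left out, 3 to 9 members (1.73% to 5.2%) were called higher and 0 to 3 (0% to 1.73%) lower, beside 2.03% to 5.46% higher and 1.03% to 3.95% lower among all genes. ZNF831, ZNF45 and ZNF664 were called in all 6 of those fits, ZNF865 in 4, ZNF398 in 3 and each of the others in at most 2.

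**Figure D5:**
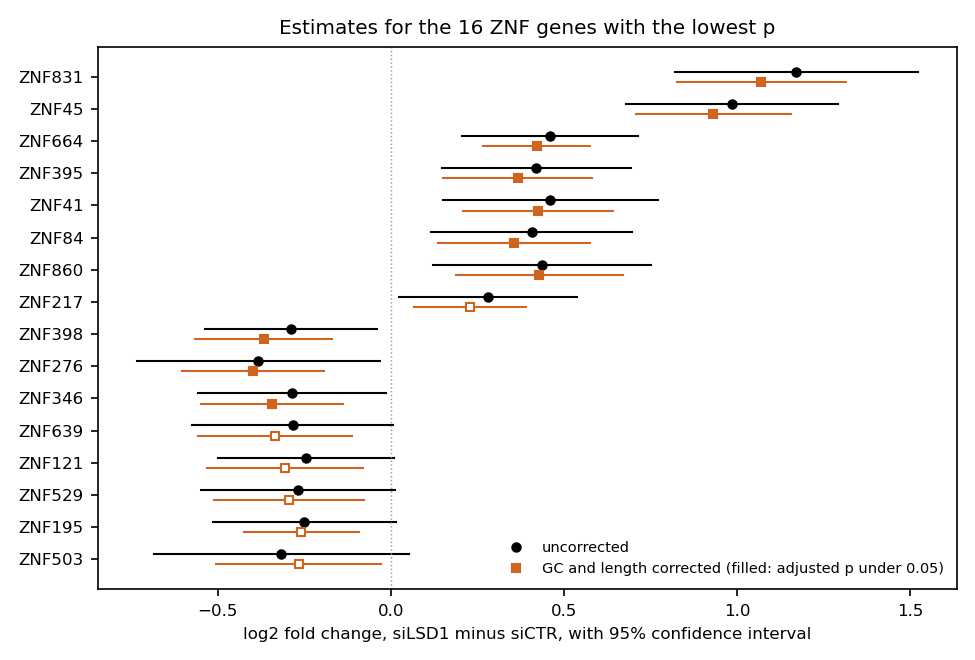
Log2 fold change (siLSD1 minus siCTR) with its 95% confidence interval for the 16 members of the plot of CPM by library, uncorrected (black circles) and corrected for GC content and length (orange squares, filled where the adjusted p was under 0.05). The corrected intervals are narrower, and the estimates keep their sign; ZNF831 and ZNF45 lie near 1 in both fits.

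The members were next split by the domains of their proteins, found as letter patterns in the translated canonical coding sequence of GENCODE 44. A KRAB A-box motif was found in 82 members and a SCAN motif, a dimerisation domain, in 9, with 1 member holding both and 83 neither. KRAB members had 12 fingers at the median and the others 7, with a highest number of 40. KRAB members centred at a log2 fold change of 0.06 with 56 of 82 higher, and the 91 without the motif had 0.02 with 52 higher. At an unadjusted p under 0.05, 7 KRAB members were higher and 1 was lower, against 6 and 2 of the others, beside 7.48% higher and 6.55% lower among all genes tested, and each class held 1 of the genes called. With the correction the medians were 0.02 for both classes, and these counts became 9 and 7 for KRAB members and 10 each for the others, beside 12.7% and 12.1%. KRAB members were lower in GC (median 42.2% against 47.9%) and lower in expression (4.95 against 7.99 FPKM).

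By number of fingers, the median log2 fold change was 0.01 for 34 members with 0 to 4 fingers, 0.02 for 59 with 5 to 9, 0.08 for 45 with 10 to 14 and 0.09 for 35 with 15 or more. These became -0.01, 0.02, 0.02 and 0.05 with the correction. In the same order of classes, the siLSD1 libraries all lay above the siCTR libraries for 2, 5, 4 and 6 members and all below for 4, 3, 4 and 0, beside 11.4% and 9.97% of all genes tested. No finger was found in 4 members, ZNF330, ZNF503, ZNF703 and ZNF839. Chromosome 19 held 58 members, 44 of them with a KRAB motif, with a median log2 fold change of 0.05 and 38 higher, while the 115 members elsewhere had 0.04 and 70 higher. Chromosome 16 came next with 17 members and chromosome 7 with 16, with medians of 0.02 and 0.01. None of these splits was tested.

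Among members with a known partner or task, none was called besides those above in the uncorrected or the corrected fit. ZNF644, which brings the H3K9 methyltransferases G9a and GLP to chromatin, had 1021, 949 and 1095 siCTR reads against 872, 1045 and 1382 siLSD1 reads (log2 fold change 0.10, SE 0.15), and ZNF518A of the same group had 0.09 (SE 0.16). Both took a negative sign without siLSD1 replicate 3. ZNF592 and ZNF687, which act with ZMYND8 in the Z3 module, had 0.28 (SE 0.13, unadjusted p = 0.0420, adjusted p = 0.328 by the edgeR quasi-likelihood test, Benjamini-Hochberg adjusted) and 0.02 (SE 0.13). ZNF592 had 925, 709 and 961 siCTR reads against 1090, 1020 and 1051 siLSD1 reads, without overlap in CPM. Its estimate was 0.17 without siCTR replicate 2 and 0.19 with the correction. Of the other genes listed for such tasks, ZNF516 and ZNF827 had at most 5 and 2 reads in a library and ZNF521 had 19 to 30 reads (log2 fold change 0.15, SE 0.30), and ZNF518B, ZNF593 and ZNF423 were not analysed here.

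ZNF143, an activator, and ZNF148 and ZNF281, which bind GC-rich elements, had log2 fold changes of -0.06, -0.06 and 0.20 (SE 0.13, 0.14 and 0.13). The estimate of ZNF281 was 0.093 without siLSD1 replicate 3. ZNF143 had 522, 448 and 579 siCTR reads against 491, 445 and 553 siLSD1 reads, and its groups overlapped. The 95% confidence interval of its difference was -0.34 to 0.22. Its relative ZNF76, below the minimum at a mean of 188 reads, had 180, 136 and 156 against 246, 191 and 220 reads (log2 fold change 0.47, SE 0.16, adjusted p = 0.185, edgeR quasi-likelihood test, Benjamini-Hochberg adjusted). With the correction ZNF76 was called higher (log2 fold change 0.51, adjusted p = 0.0311, same test).

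Several ZNF proteins work on RNA or in the cytoplasm, and the first and the third of the members by expression were among them. ZNF622, a factor of large ribosomal subunit assembly, had 55.9 FPKM, ZNF146, a protein made almost wholly of fingers, 50.2 FPKM, and ZNF598, the ubiquitin ligase that senses collided ribosomes, 50.1 FPKM. ZNF622 had 1134, 1503 and 1203 siCTR reads against 1106, 1132 and 1394 siLSD1 reads (log2 fold change -0.09, SE 0.14). ZNF598 had 2408, 1972 and 2138 against 2756, 2158 and 1854 reads (0.05, SE 0.14), and ZNF146 had 2312, 2645 and 2593 against 2396, 2429 and 2877 reads (0.02, SE 0.11). In all 3 the groups overlapped and the interval of the difference lay within 0.39 of 0. The spindle protein ZNF207 (-0.12, SE 0.12), the splicing and elongation factor ZNF326 (-0.0046, SE 0.13), the RNA-binding ZNF638 (0.03, SE 0.13), the nucleolar ZNF330 (-0.11, SE 0.14) and the SUMO ligase ZNF451 (-0.09, SE 0.12) had 95% confidence intervals that include 0.

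ZNF703, a corepressor related to ZNF503 and amplified in breast cancer, had the lowest log2 fold change of the family. It had 396, 289 and 292 siCTR reads against 326, 247 and 170 siLSD1 reads, with overlap between the groups. The estimate was -0.40 (SE 0.21, adjusted p = 0.430, edgeR quasi-likelihood test, Benjamini-Hochberg adjusted) and became -0.28 with the correction for GC content and length (unadjusted p = 0.0360, adjusted p = 0.166, same test). ZNF503 went from -0.32 to -0.27 (unadjusted p = 0.0311, adjusted p = 0.154). Both genes are GC-rich (65.2% and 62.0%), and siLSD1 replicate 3 held the lowest count of each. With the correction that library still had the lowest median deviation of the pair, at -0.32. Without it and without the correction, the estimates were -0.17 for ZNF703 and -0.13 for ZNF503.

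The corepressor genes on which KRAB proteins rely were read beside them. Of the 23 tested, none was called, and 1 was higher and 1 lower at an unadjusted p under 0.05, beside 7.48% and 6.55% of all genes tested. Their median log2 fold change was 0.02. With the correction none was called, and 3 were higher and 3 lower at an unadjusted p under 0.05, beside 12.7% and 12.1%. TRIM28 had 6239, 6642 and 6185 siCTR reads against 6010, 5479 and 5486 siLSD1 reads (log2 fold change -0.17, SE 0.11, adjusted p = 0.498, edgeR quasi-likelihood test, Benjamini-Hochberg adjusted). SETDB1 had 686, 564 and 640 against 735, 679 and 717 reads (0.17, SE 0.12, adjusted p = 0.539). The gene higher at the unadjusted threshold was CBX5, which codes for HP1 alpha (0.29, SE 0.11, adjusted p = 0.226), and the lower was CHD4 (-0.43, SE 0.15, adjusted p = 0.209), a remodeller of the NuRD complex, both named after their values were seen.

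Other zinc finger families were defined by symbol and were not tested against the members. The median log2 fold change was -0.01 for 35 tested ZBTB genes, 0.02 for 16 ZFP genes, 0.08 for 14 ZSCAN genes and 0.05 for 19 KLF and SP genes, and no gene of these was called without the correction, beside 1.07% higher and 0.371% lower among all genes tested. With the correction, ZFP90, ZSCAN29, KLF4 and KLF6 were called higher and KLF5 and KLF9 lower, beside 5.09% and 3.52%, all 6 named after their values were seen. Of 6 ZKSCAN genes, with a median of 0.25, ZKSCAN1 was called, beside 1.07% called higher among all genes tested, and it too was named after its value was seen. It had 57.5, 51.9 and 61.0 CPM in siCTR against 82.6, 82.2 and 82.4 CPM in siLSD1 (log2 fold change 0.54, SE 0.11, adjusted p = 0.0344, edgeR quasi-likelihood test, Benjamini-Hochberg adjusted).

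Below the minimum, 278 ZNF genes had a mean count under 200, and 214 of these passed the filter on low counts. Their median log2 fold change was 0.05, with 120 higher. With the correction 5 of 213 were called higher, ZNF76, ZNF165, ZNF185, ZNF616 and ZNF804A, and 0 lower, beside 5.09% and 3.52% of all genes tested. Without it 1 was called higher, beside 1.07%, and 0 lower, beside 0.371%. The gene called was ZNF185, which codes for an actin-associated LIM protein and not a C2H2 factor, with 69, 53 and 64 siCTR reads against 107, 107 and 131 siLSD1 reads (log2 fold change 0.89, SE 0.19, adjusted p = 0.0364, edgeR quasi-likelihood test, Benjamini-Hochberg adjusted). At the minimum itself, ZNF580 (mean 203 reads, log2 fold change -0.09) and ZNF860 (mean 206 reads, 0.44) were just inside, and ZNF134 and ZNF888 (mean 199.8 reads each, 0.33 and 0.25) were just outside.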

How the data were processed

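RNA-seq libraries of U2OS cells were compared, 3 siCTR and 3 siLSD1. Reads were mapped by the authors with STAR, and the deposited values are whole-read counts for each gene, not normalized, and FPKM for each library. Genome build, annotation, counter and strand setting are not given in the sources used here. The deposited tables of library pairs hold a second set of counts of the same libraries (median ratio to the first 1.11 for the members), used as an alternative. The authors' fold changes, p-values, size-factor normalized signal and log2 columns were not used.

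The counts were fitted in R 4.3.3 with edgeR 4.0.16 (TMM, quasi-likelihood test, no covariates, filterByExpr at a minimum of 10 reads), with Benjamini-Hochberg adjustment over 11844 genes. CPM values are TMM-scaled. FPKM served only to compare levels between genes. GC content, length and coordinates came from GENCODE 44 on GRCh38, with 98.5% of the 15585 genes matched. In the correction, lowess trends (span 0.3, log-CPM with a prior count of 2) on GC content and length entered the offsets. Fingers, KRAB and SCAN domains were sought as patterns in the translated GENCODE sequence, in place of the RefSeq protein that was planned. DESeq2 1.42.0 and limma-voom (limma 3.58.1) were alternatives, beside other scaling, filters, count minimums, a replicate block and each library left out. The correction with each library left out was added after seeing the data.

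Every pair of libraries differed beyond sampling noise (chi-square per degree of freedom 6.45 to 39.3), so all 6 were kept as samples. The biological coefficient of variation was 12.6%. The procedure was tested on simulated counts. It recovered 35 of 100 genes with a log2 change of 0.5 and 99 of 100 with a change of 1, and 11 of its 145 calls were false. Arrays of related genes may share reads.

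Named genes were KDM1A, called members, the 8 lowest p in each direction, members of lists of known partners and tasks, the 2 nearest the count minimum on each side, the 3 of highest FPKM, and TRIM28 and SETDB1. Members called after the correction, neighbours of called genes and genes marked in the text were named beyond this rule. The members and lists were chosen with earlier results of these data known.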

Additional observations from a re-analysis of the deposited data

How the results depend on the processing

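Leaving out 1 library gave 2 members called higher and 0 lower each time (0.375% to 0.827% and 0.0584% to 0.309% of all genes), 8 to 13 higher and 0 to 6 lower at an unadjusted p under 0.05 (5.07% to 7.72% and 3.79% to 7.43% of all genes), 94 to 113 with a positive sign, and a median of 0.0204 to 0.0730. With the GC and length correction, 9 were called higher and 3 lower (17 lower unadjusted). With the correction and without siCTR replicates 1, 2 and 3 and siLSD1 replicates 1, 2 and 3 in turn, 4, 9, 5, 5, 3 and 5 were called higher and 3, 3, 1, 2, 0 and 0 lower. At an unadjusted p under 0.05, 22, 23, 23, 16, 17 and 16 were higher (9.25% to 13.3%) and 15, 14, 16, 16, 10 and 9 lower (5.2% to 9.25%). Among all genes these unadjusted shares were 9.87% to 13% and 8.96% to 11.9%. Of the members, 97 to 107 were positive, with a median of 0.0213 to 0.0342. DESeq2 and the fit without a filter called 3 members higher (1.77% and 1.21% of all genes). Minimums of 100 and 500 reads left 270 and 62 members, with 2 and 1 called higher (1% and 0.862% of all genes at these minimums), 18 and 6 higher (7.15% and 6.93%) and 5 and 2 lower (6.95% and 5.77%) unadjusted, and 167 and 38 positive. The cause of these differences was not tested.

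The replicate number as a block gave 6 calls higher (3.47%) and 2 lower (1.16%), beside 4.13% and 3.44% of all genes tested. Unadjusted, 19 (11%) were higher and 9 (5.2%) lower, beside 10.3% and 11.2%. With the correction as well, 15 (8.67%) and 8 (4.62%) were called, beside 7% and 5.97%. Unadjusted these were 25 (14.5%) and 18 (10.4%), beside 14.5% and 14.3%. Without the correction the block called ZNF831, ZNF45, ZNF664, ZNF41, ZNF395 and ZNF84 higher. It called ZNF276 and ZNF703 lower (adjusted p = 0.0284 and 0.0414, edgeR quasi-likelihood test). With the correction, the genes called under the block included ZNF217 (higher) and ZNF639, ZNF121 and ZNF195 (lower). Correlations of same-numbered libraries were 0.33, 0.07 and 0.31, and those of different numbers ran from -0.29 to 0.0072. All 6 libraries correlated best with their own number. The labels do not say that the numbers are pairs, although the deposit compares libraries of the same number. The block was therefore kept as an alternative, and whether the numbers are pairs was not tested.

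Of 38 named genes under 15 alternatives, 515 estimates kept direction and side of the threshold, 28 passed it in addition and 27 turned sign, in 12 genes with small estimates. With the correction ZNF638 was -0.0231 and ZNF580 0.233, and with the replicate block as well -0.0231 and 0.252. The second counting gave ZNF687 -0.00258 and ZNF326 0.0249, and the stricter filter gave ZNF326 0.00113. Without 1 library, ZNF644 between -0.0667 and 0.257, ZNF518A between -0.0551 and 0.242, ZNF687 between -0.0675 and 0.123, ZNF143 between -0.138 and 0.00763, ZNF148 between -0.173 and 0.0552, ZNF598 between -0.0964 and 0.190, ZNF622 between -0.175 and 0.0637, ZNF326 between -0.0880 and 0.0867, ZNF638 between -0.0934 and 0.140, ZNF330 between -0.189 and 0.0178, ZNF580 between -0.227 and 0.0219, and ZNF146 between -0.0406 and 0.0860. With 3 libraries a group, differences under about 0.297 lay within the median interval.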
